A study of Mus musculus with 24 samples.

Results

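The effect of the NaKtide peptide on the adipose tissue transcriptome was averaged over sham-operated and nephrectomised mice. All 24 libraries of the series took part, 12 from NaKtide-transduced and 12 from GFP-transduced animals, with 1 library per mouse. The count table lists 54232 genes, of which 37857 were detected with 1 count or more. The test took the 26116 genes whose counts over the 24 libraries added up to more than 10. The value given for a gene is the mean of its log2 fold change (NaKtide over GFP) in sham animals and its log2 fold change after nephrectomy.

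All animals were C57BL6 mice, male by the methods of the study and 10 weeks old by the description of the series, where the methods give a range that starts at this age. Partial nephrectomy (PNx) removed the right kidney and ligated part of the left one, and the sham operation left both in place. All mice also received an intraperitoneal lentivirus whose adiponectin promoter, active in adipocytes, drove either enhanced green fluorescent protein (GFP) alone or NaKtide joined to GFP by a self-cleaving peptide. The 4 groups of 6 were Control (sham, GFP), NaKtide (sham, NaKtide), PNx (nephrectomy, GFP) and PNx+NaKtide (nephrectomy, NaKtide). The transgenes themselves are not among the genes of the table, so their expression was not measured here.

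The Na,K-ATPase is the membrane pump that moves sodium out of the cell and potassium into it, and it also holds the tyrosine kinase Src. Oxidants and cardiotonic steroids, which accumulate in renal failure, can set off a signalling cascade from this complex. NaKtide is a peptide derived from the pump that binds Src and is intended to keep this cascade silent.

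Libraries were shallow and differed in depth between the arms. Total counts ranged from 1538612 to 2979505 in the GFP arm (2034090 ± 450052, SD, n = 12) and from 679250 to 2053464 in the NaKtide arm (1450190 ± 358469, SD, n = 12). The difference of -583906 counts, averaged over both surgeries, gave p = 0.00136 in an exact two-sided permutation test within surgery (853776 assignments). Levels are given as CPM, the count relative to the library total after scaling with edgeR's TMM factors. Where no read was counted, up to 3 could have been missed, which is 0.739 to 5.91 CPM depending on the library, and this limit covers counting error only. PNx replicates 1, 2, 3 and 6 and NaKtide replicate 6 stood apart from the other libraries of the series, and results were also computed without these 5. A list of epididymis genes summed to between 39.9 and 1023 CPM in them and to between 1801 and 3974 CPM in the other 19 libraries. The summed CPM of the adipocyte markers ranged from 255 to 10958 over the libraries, with the 2 highest sums in PNx replicate 6 and NaKtide replicate 6 (8695).

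The strand of the counts bears on the genes named below. Genes with exon overlap to an opposite-strand gene made up 16.8% of all annotated genes and held 79.9% of all counts. In the mitochondrial genome the minus-strand mRNA had 67.6 times the counts per kb of the 12 plus-strand mRNAs, and at least 21 times in every library. The counts therefore look inverted, that is, assigned mostly to the strand opposite to the annotated one. The strand setting of the counting is not stated. A count at an antisense locus can be that of its partner gene, and a change there cannot be assigned to the antisense transcript. Counts of genes without such an overlap may likewise hold only the lesser strand of their reads, so their levels and changes are limited too. Genes named below that overlap an opposite-strand gene by more than 100 exon bases, besides the loci described with their partners, are Nos3, Cdkn1a, Padi2, Zfp213, Ncald, Sash1, Myd88, Ei24, Agpat1, Selp, Tmem67, Des, Atp1b1, Keap1 and Prdm16.

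A single gene passed the threshold for the averaged NaKtide effect. Counts at B430119L08Rik, an antisense locus of the liver gene Serpina1c, were lower with NaKtide, and these counts can be reads of Serpina1c or its close relatives. In edgeR's quasi-likelihood test it was the only gene of 26116 (0.00383%) with a Benjamini-Hochberg adjusted p under 0.1, and the next smallest adjusted p was 0.270. With the replicate number as a block 0 genes were called, and the adjusted p of B430119L08Rik was 0.596 in edgeR. Its call was also lost without PNx replicate 1, NaKtide replicate 1, NaKtide replicate 4, PNx+NaKtide replicate 1 or PNx+NaKtide replicate 4, with an adjusted p of at most 0.129 over the 24 fits in edgeR. Without adjustment, 1611 genes (6.17%) had a p under 0.05, 568 of them higher (2.17%) and 1043 lower (3.99%) with NaKtide. Other tools gave other counts at the adjusted threshold, 46 genes in DESeq2 and 4620 in limma voom with sample weights. Across all 26116 genes the log2 fold change had a median of -0.15, and directions of single genes are to be read against it. In no gene did the 12 NaKtide libraries and the 12 GFP libraries fail to overlap (0%), and in no gene were they separated in the same direction within each surgery (0%). These p-values measure the spread between mice, which was wide, with a biological coefficient of variation of 71.4%.

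Without the 5 libraries that stood apart, the PNx group held only replicates 4 and 5, on which the effect after nephrectomy then rested. In this fit 41 genes were called and all 41 were lower with NaKtide (0.157% of 26116). They included B430119L08Rik (log2 fold change -4.63, adjusted p = 0.0306 in edgeR), Gm30505 (-3.62), Nrsn1 (-3.86), Tfap2b (-2.27), Arhgef15 (-1.61), Agpat1 (-1.09) and Scd3 (-1.08). Agpat1 makes phosphatidic acid on the way to triglycerides, Scd3 is a fatty acid desaturase, Tfap2b is a transcription factor, and Arhgef15 is a guanine nucleotide exchange factor of endothelial cells. In these 19 libraries 8 genes had 11 NaKtide libraries below all 8 GFP libraries, among them Tfap2b (at most 50.5 against at least 57.0 CPM), Nrgn (24.2 against 27.5 CPM) and Selp (4.72 against 5.83 CPM), which encodes P-selectin.

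The 2 lowest p-values belonged to loci opposite liver genes. Serpina1c encodes an alpha-1 antitrypsin, a protease inhibitor secreted by hepatocytes. B430119L08Rik (ENSMUSG00000086432) lies on the plus strand of chromosome 12, from 103895897 to 103898784 (GRCm38), and shares 429 exon bases with Serpina1c, all of them coding. Of the longest shared run, the first 120 coding bases are shown on the Serpina1c strand, because both genes claim this sequence. They lie at chr12:103897192-103897311 (minus strand, GENCODE transcripts).
Serpina1c: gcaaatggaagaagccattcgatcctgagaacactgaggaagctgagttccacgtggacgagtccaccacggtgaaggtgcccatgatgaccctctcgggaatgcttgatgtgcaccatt
The same stretch matched Serpina1a with 2 mismatches, Serpina1b and Serpina1e with 4 each and Serpina1d with 6, so the source of a read within the family is uncertain.

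B430119L08Rik stood at 286, 393, 276, 283, 35.8 and 4.68 CPM in Control replicates 1 to 6. In NaKtide replicates 1 to 6 it stood at 7.66, 1.99, 18.9, 13.3, 25.6 and 30.4 CPM. The values were 310, 25, 11.9, 258, 221 and 225 CPM in PNx and 4.43, 11.1, 12.1, 6.14, 0 and 9.50 CPM in PNx+NaKtide. Control replicates 1 to 4 and PNx replicates 1, 4, 5 and 6 were thus high, whereas the other 4 GFP libraries lay in or near the range of the NaKtide arm. All 12 NaKtide libraries were below the GFP mean, and 9 of 12 GFP libraries were above the highest NaKtide library. The log2 fold change was -4.15 ± 0.65 (SE, adjusted p = 0.0334 in edgeR's quasi-likelihood test), with -3.72 in sham animals and -4.57 after nephrectomy. The difference between both effects gave an unadjusted p of 0.473 in edgeR. Serpina1c itself, counted on its own strand at a mean of 23.1 CPM, had a log2 fold change of 0.31 ± 0.73 (SE).

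Gm30505, opposite the fetuin-A gene Ahsg, showed the same libraries as high. It stood at 13.0, 14.5, 15.4 and 10.5 CPM in Control replicates 1 to 4 and at 12.1, 11, 5.94 and 7.55 CPM in PNx replicates 1, 4, 5 and 6. Its other 4 GFP libraries had at most 1.62 CPM and the NaKtide arm at most 1.66 CPM. The log2 fold change was -3.52 ± 0.69 (SE) and did not pass, with an adjusted p of 0.270 in edgeR. The overlap with Ahsg is 62 exon bases. The 38 coding ones are printed as the sequence that ties this locus to a plasma protein gene (chr16:22894349-22894386, plus strand).
Ahsg: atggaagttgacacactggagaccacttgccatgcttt

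Gm47544, which shares 524 exon bases with the apolipoprotein gene Apoa5, repeated this division. It was detected at 10.7 to 26.0 CPM in Control replicates 1 to 4 and at 7.64 to 29.8 CPM in PNx replicates 1, 4, 5 and 6, against 0 in the other 4 GFP libraries and at most 3.39 CPM in the NaKtide arm. Its log2 fold change was -4.30 ± 0.95 (SE, adjusted p = 0.516 in edgeR). Gm45724, which abuts the carboxylesterase gene Ces3a with 1 shared base, had reads in the same 8 GFP libraries and in none of the 12 NaKtide libraries. Its mean of 2.43 CPM in the GFP arm was at least 13.8-fold higher than 3 counts over the whole NaKtide arm (0.176 CPM). With only 1 shared base, reads at Gm45724 cannot be assigned to Ces3a.

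**Figure D1:**
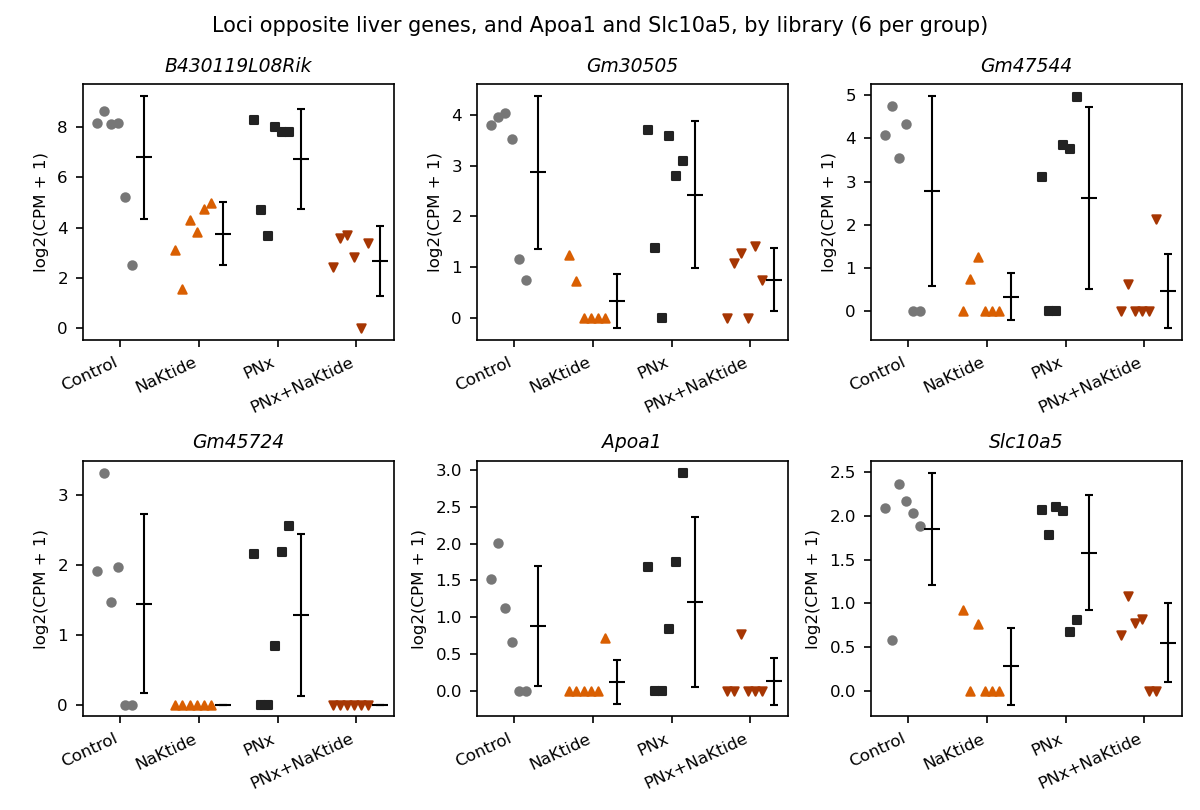
Level of 6 liver-linked genes in each library, as log2(CPM + 1) on the vertical axis and by group on the horizontal axis. Each point is 1 library (replicates 1 to 6 from left to right), and bars give the mean ± SD of the 6 libraries. In the 4 loci of opposite-strand partners, the same 8 GFP libraries stand above the NaKtide libraries.

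A list of 45 genes, written after these partners had been seen and therefore a description only, covers proteins secreted or made by the liver. Counted on their own strand, 35 were tested, and 10 were lower and 0 higher with an unadjusted p under 0.05 (3.99% and 2.17% of all genes), with a median log2 fold change of -0.32. Among them were the transporter Slc10a5 (-2.37), the HDL protein Apoa1 (-3.10), albumin Alb (-3.40), Ahsg (-3.06) and fibrinogen Fgb (-3.18), none of which passed the adjusted threshold (adjusted p of 0.516 for Slc10a5 and 0.785 for the others in edgeR). Levels were low, with at most 6.79 CPM for Apoa1 and 14.0 CPM for Alb. The summed CPM of the list on its own strand was not lower with NaKtide. Its medians were 323 in Control, 323 in NaKtide, 247 in PNx and 269 in PNx+NaKtide. Of 7 tested loci whose main opposite-strand partner is on the list, 4 were lower and 1 was called, and their median was -3.52, a value that did not move with Gm45724 set to its bound. Fewer cells of a type and less RNA per cell cannot be told apart in bulk tissue, and the part of liver RNA in these values was not tested.

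The promoters of Serpina1c and Alb are printed since both genes belong to the liver group. They run from 250 bases before to 50 after the start site (RefSeq, GRCm38.p6). Capitals mark GTTAAT, a half-site of the hepatocyte factor HNF1, searched on both strands.
Serpina1c, chr12:103904901-103905200, minus strand: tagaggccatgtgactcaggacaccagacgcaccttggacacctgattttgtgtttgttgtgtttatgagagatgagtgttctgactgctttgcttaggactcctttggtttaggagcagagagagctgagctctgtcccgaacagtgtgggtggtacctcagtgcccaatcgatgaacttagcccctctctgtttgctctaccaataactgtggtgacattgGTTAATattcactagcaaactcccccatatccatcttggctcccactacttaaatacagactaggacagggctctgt
Alb, chr5:90460620-90460919, plus strand: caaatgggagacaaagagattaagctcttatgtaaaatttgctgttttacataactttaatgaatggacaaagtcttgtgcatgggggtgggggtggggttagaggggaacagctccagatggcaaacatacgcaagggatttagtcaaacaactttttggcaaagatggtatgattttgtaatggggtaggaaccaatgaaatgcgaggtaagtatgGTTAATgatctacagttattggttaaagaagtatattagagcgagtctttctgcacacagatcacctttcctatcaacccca
The motif occurred once in each, and once in the promoter of Fgb, whereas those of Ahsg, Apoa5 and Apoa1 held no match. It occurs in 7.10% of the 32851 promoters of the table.

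Sh3bgr, a gene of heart and skeletal muscle, had the lowest p among the higher genes that carry a proper gene name (Gm and Rik loci left aside) and average 1 CPM or more. Its range, with the median in brackets, was 1.85 to 8.88 CPM (5.89) in Control, 3.49 to 78.9 CPM (9.28) in NaKtide, 1.01 to 4.75 CPM (2.89) in PNx and 3.87 to 25.3 CPM (12.1) in PNx+NaKtide. The groups overlapped, and 6 of 12 NaKtide libraries lay above all GFP libraries. The log2 fold change was 2.03 ± 0.45 (SE, adjusted p = 0.516 in edgeR), with 1.80 in sham animals and 2.26 after nephrectomy, and became 1.35 without NaKtide replicate 6. Tropomyosin Tpm2 had a log2 fold change of 1.87 and skeletal actin Acta1 one of 4.22, but NaKtide replicate 6 alone held 420 and 323 CPM of them, and without this library the values were 0.93 and 0.62.

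Gm15816, opposite the ankyrin gene Ank1 of red cells and muscle (862 shared exon bases), was high in 4 libraries, all of the NaKtide arm. It stood at 648 CPM in NaKtide replicate 6 and at 334, 283 and 325 CPM in PNx+NaKtide replicates 2, 3 and 4, whereas the 20 other libraries had between 2.04 and 10.5 CPM. The log2 fold change of 4.24 ± 0.94 (SE) did not pass (adjusted p = 0.516 in edgeR) and became 2.05 without NaKtide replicate 6. The first 120 coding bases of the longest run it shares with Ank1 are printed to identify the locus (chr8:23139277-23139396, plus strand).
Ank1: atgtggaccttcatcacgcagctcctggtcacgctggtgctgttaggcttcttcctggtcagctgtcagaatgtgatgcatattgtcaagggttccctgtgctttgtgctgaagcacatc
Gm48752, opposite the slow myosin-binding protein Mybpc1, stood at 99.6 CPM in NaKtide replicate 6 and at 22.9, 10.0 and 8.44 CPM in PNx+NaKtide replicates 2, 3 and 4, with at most 0.50 CPM elsewhere. Its log2 fold change of 5.97 ± 1.27 (SE, adjusted p = 0.516 in edgeR) became 1.99 without NaKtide replicate 6. Ube2c, a ubiquitin-conjugating enzyme of mitosis, shares 592 exon bases with the troponin gene Tnnc2 and stood at 434, 386 and 378 CPM in PNx+NaKtide replicates 2, 3 and 4. Its log2 fold change of 4.10 ± 1.25 (SE) became 0.16 without NaKtide replicate 6.

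**Figure D2:**
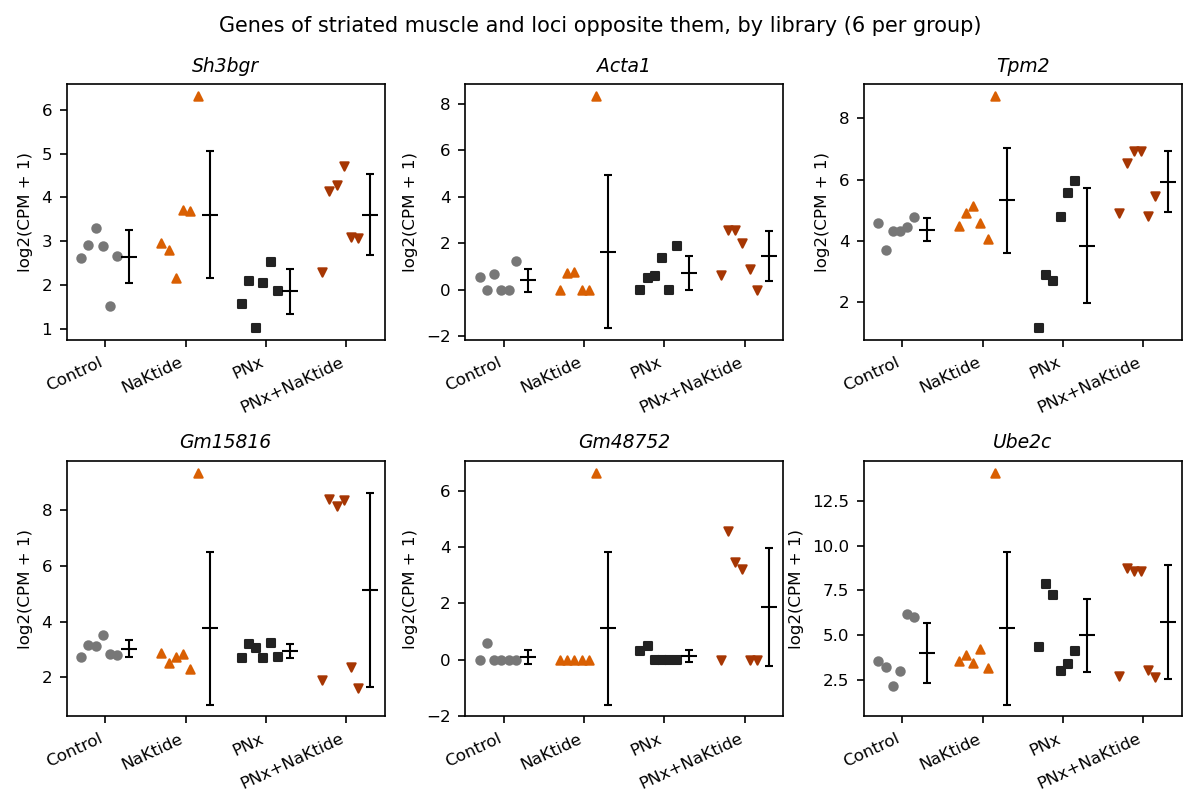
Level of 3 muscle genes (upper row) and of 3 loci opposite muscle genes (lower row) in each library, as log2(CPM + 1). Points are libraries in the order of their replicate numbers and bars give the mean ± SD of 6 libraries. NaKtide replicate 6 is the highest library in all 6 panels, and PNx+NaKtide replicates 2, 3 and 4 follow it in Gm15816, Gm48752 and Ube2c.

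The skeletal muscle list moved unequally in both surgeries. Of 15 genes tested 5 were higher at an unadjusted p under 0.05 and 0 lower, against 2.17% and 3.99% of all genes, with a median log2 fold change of 1.90, but the median was 5.25 in sham animals and -0.71 after nephrectomy. Its summed CPM was 7137 in NaKtide replicate 6, but at most 134 in the other libraries of the NaKtide arm. It was at most 192 in any GFP library. The median sums were 127 in Control, 109 in NaKtide, 88.3 in PNx and 87.9 in PNx+NaKtide. By these sums the NaKtide arm was not higher apart from NaKtide replicate 6. Of 10 smooth muscle markers 4 were higher, among them desmin Des (1.64) and calponin Cnn1 (1.25), against 2.17% of all genes, and their median was 0.64. Their summed CPM was 677, 830 and 835 in PNx+NaKtide replicates 2, 3 and 4 and between 281 and 397 in the other libraries of that group. In PNx it was between 120 and 161 in replicates 1, 2 and 3, which stood apart, and between 403 and 508 in the others. The part of muscle RNA in these values was not tested.

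Markers of blood and vessels also differed between the surgeries in their medians. All 4 haemoglobin genes of the erythrocyte list (Hba-a1, Hba-a2, Hbb-bs and Hbb-bt) were lower at an unadjusted p under 0.05, with log2 fold changes of -2.01, -1.98, -1.81 and -2.09. The median of the 7 erythrocyte genes was 0.27 in sham animals and -4.14 after nephrectomy, where PNx replicate 6 alone summed to 1628 CPM and the PNx median was 29.7 CPM. Of 14 endothelial markers 3 were lower at an unadjusted p under 0.05 (Tek, Esam and Ptprb) and 0 higher, against 3.99% and 2.17% of all genes. The endothelial sum was 951 CPM in PNx replicate 6, against a PNx median of 139 CPM, and 592 CPM in NaKtide replicate 6. Tek, the angiopoietin receptor, differed from this pattern in being lower in both surgeries. It ranged from 2.92 to 8.01 CPM (median 6.30) in Control and from 0 to 3.23 CPM (2.26) in NaKtide, and from 2.38 to 19.6 CPM (7.24) in PNx and from 0.679 to 4.46 CPM (2.75) in PNx+NaKtide. Of the GFP libraries 10 of 12 lay above every NaKtide library. Its log2 fold change was -1.54 ± 0.39 (SE, adjusted p = 0.716 in edgeR), with -1.48 and -1.61 in the respective surgeries.

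The other named genes with the lowest p-values did not pass the adjusted threshold (adjusted p from 0.516 to 0.785 in edgeR). Slc10a5, of the bile acid transporter family, ranged from 0.50 to 4.14 CPM in Control and from 0 to 0.901 CPM in NaKtide. Of the GFP libraries 9 of 12 exceeded all NaKtide libraries. Its values in the NaKtide arm were all under the level of 3 counts, which was at least 1.35 CPM there. Its neighbour on chromosome 3, Zfand1 (10339953 to 10351317, against 10331734 to 10335656 for Slc10a5), was lower too, by a log2 fold change of -0.94 ± 0.27 (SE) that was nearly equal in both surgeries (-0.95 and -0.94). The carnitine and ergothioneine transporter Slc22a4 (-1.91), the neuronal protein Nrsn1 (-3.29), the serine protease Prss51 (-2.22), the calcium sensor Ncald (-1.76), the scaffold protein Sash1 (-1.73) and the phosphoinositide kinase Pikfyve (-2.16) were lower. All 12 NaKtide libraries were below the GFP mean for Slc22a4, Nrsn1 and Prss51.

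Higher with NaKtide were the mitochondrial complex I gene mt-Nd3, the arginine deiminase Padi2 (1.31) and the pseudogene Uqcrh-ps1 (1.76) of a complex III subunit. Uqcrh-ps1 had only 39 counts over all libraries. A pair of neighbours on chromosome 17, the zinc finger gene Zfp213 (1.28) and Casp16-ps (1.64), was higher too. The gene mt-Nd3 ranged from 5.25 to 26.8 CPM in Control and from 8.38 to 93.7 CPM in NaKtide, and 8 of 12 NaKtide libraries exceeded every GFP library. Its log2 fold change was 1.46 ± 0.37 (SE), with 2.08 in sham animals and 0.84 after nephrectomy. Of 13 mitochondrial mRNAs it was 1 of 2 higher at an unadjusted p under 0.05, with mt-Nd5 (0.75), against 2.17% of all genes. The median of the 13 was 0.10. The gene mt-Nd3 lies on the plus strand, whose 12 mRNAs had far fewer counts per kb than the minus-strand mRNA. Its counts may thus be the lesser strand of its reads. Copies of mitochondrial genes in the nucleus also make such values uncertain. Pseudogenes, which share sequence with their parent genes, had 337 of 3314 members (10.2%) at an unadjusted p under 0.05, against 6.17% of all genes. Of the 337, 197 were higher and 140 lower, and over all genes 2.17% were higher and 3.99% lower at that p. Zfp213 and Casp16-ps were higher after nephrectomy (2.04 and 3.06) more than in sham animals (0.53 and 0.22), with an unadjusted interaction p of 0.0314 and 0.00421 that did not pass adjustment.

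The locus of Mir3074-1, on chromosome 13 inside the gene 2010111I01Rik on the opposite strand, had a log2 fold change of 0.90 ± 0.25 (SE). It was 0.07 in sham animals and 1.74 after nephrectomy, where PNx ranged from 3.45 to 17.3 CPM and PNx+NaKtide from 22.1 to 40.8 CPM. How many other genes separate in this way after nephrectomy was not counted, and the locus was named for its low p in these same values. The libraries hold mRNA, so these are reads over the locus and not levels of the mature microRNA, whose sequence is given to identify it (RefSeq, chr13:63301249-63301270, seed of bases 2 to 8 in capitals).
mmu-miR-3074-5p: gUUCCUGCugaacugagccagu

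Both surgery-specific effects share no library, and they were compared across the 26116 genes. Pearson's r was -0.0788 and Spearman's rho was -0.0999 across genes, which are not independent replicates, and 45.6% of genes had the same sign in both. In sham animals 1031 genes had an unadjusted p under 0.05 and 0 were called, and after nephrectomy 3309 had it and 0 were called. It was reached in both by 139 genes, of which 14 were higher in both and 42 lower in both. Over all genes the median was 0 in sham animals and -0.37 after nephrectomy. The difference between both effects was called for 0 genes, with 2421 at an unadjusted p under 0.05 in edgeR.

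**Figure D3:**
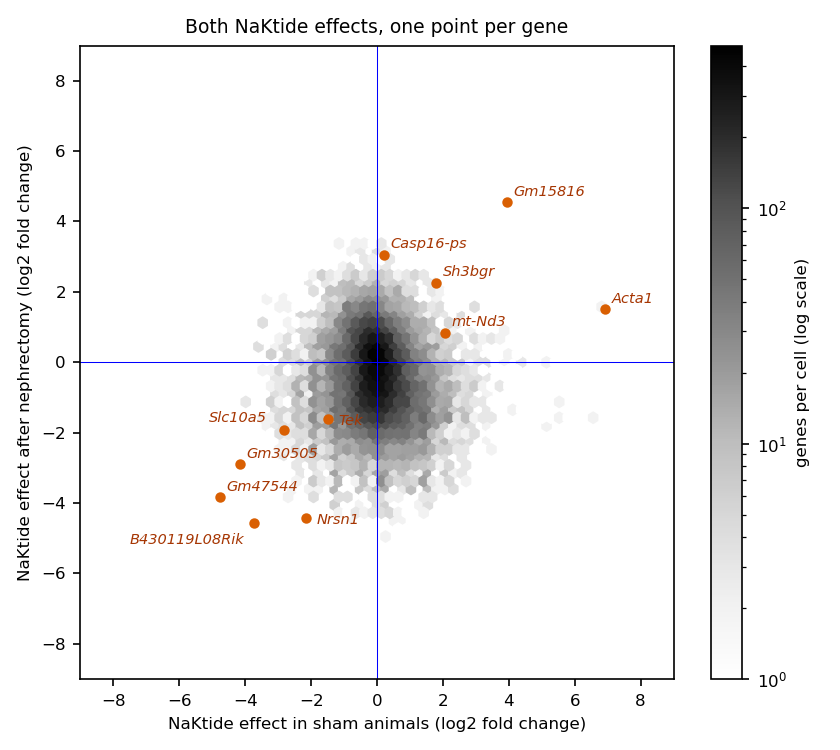
Log2 fold change of NaKtide over GFP in sham animals (horizontal) and after nephrectomy (vertical) for the 26116 genes, with the number of genes per hexagon in grey on a log scale. Pearson's r across genes is -0.0788, and the labelled genes, named in the text for a low p in the mean of both effects, lie in the lower left and upper right.

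The study picked 8 representative genes of Na,K-ATPase signalling for a PCR check on RNA of these groups, so the list is not independent of these samples, and none of the 8 had an unadjusted p under 0.05 in the averaged effect. Their median log2 fold change was -0.26, with 0.26 in sham animals and -0.97 after nephrectomy. By PCR and sequencing, the study reported these genes as raised in PNx and reverted by NaKtide. In a heat map of the genes most changed by nephrectomy, it saw little difference between NaKtide and Control. For the effect of NaKtide on the 8 genes, it compared PNx+NaKtide with PNx. In that comparison Prkca (-2.10) and Chuk (-1.46) had an unadjusted p of 0.0478 and 0.0496 in edgeR's quasi-likelihood test (adjusted p of 0.391 and 0.393). For Nos3, Tlr4, Cdkn1a and Creb1 the unadjusted p was between 0.169 and 0.976. The endothelial nitric oxide synthase Nos3 had a median of 13.5 CPM in Control, 16.5 CPM in NaKtide, 59.2 CPM in PNx and 34.1 CPM in PNx+NaKtide, with all ranges overlapping and a log2 fold change of -0.26 ± 0.61 (SE). The cell cycle inhibitor Cdkn1a had medians of 2.73, 4.08, 10.2 and 4.52 CPM in the same order and -0.27 ± 0.49 (SE), and the transcription factor Creb1 had 4.87, 2.37, 6.17 and 5.98 CPM and -0.32 ± 0.31 (SE). The protein kinase C gene Prkca (-0.74 ± 0.79, SE, and -2.52 without NaKtide replicate 6 or -0.36 without Control replicate 1), the IkB kinase Chuk (-0.69 ± 0.52, SE) and the endotoxin receptor Tlr4 (-0.03 ± 0.98, SE) had medians of at most 2.35 CPM in every group, at or under the level that a count of 0 allows in many libraries.

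Src, the kinase that NaKtide binds, ranged from 4.50 to 11.1 CPM in Control, from 4.50 to 11.9 CPM in NaKtide, from 1.51 to 10.7 CPM in PNx and from 4.16 to 12.2 CPM in PNx+NaKtide. All 4 groups overlapped, and the log2 fold change was 0.27 ± 0.32 (SE). Adipoq, whose promoter drove the transgenes, was at -0.70 ± 0.55 (SE), with 0.60 in sham animals and -2.01 after nephrectomy (unadjusted interaction p of 0.0262 in edgeR). Neither passed the adjusted threshold. Of 15 Src family kinases and regulators 0 were at an unadjusted p under 0.05 in either direction, and the lowest p was that of Csk (0.62 ± 0.42, SE, and 1.17 without PNx replicate 6), which phosphorylates Src to an inactive form.

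**Figure D4:**
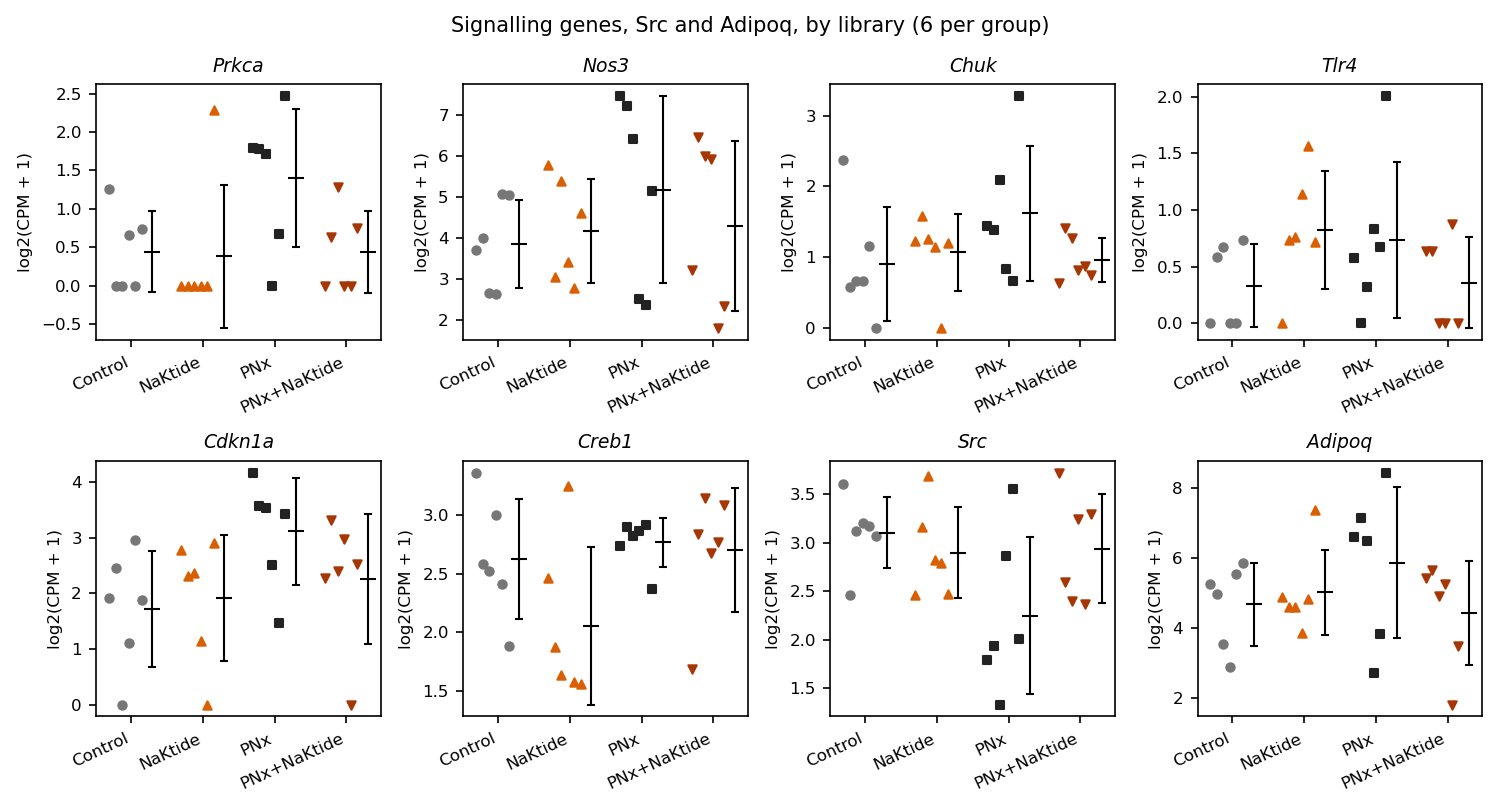
Level of 6 signalling genes, Src and Adipoq in each library, as log2(CPM + 1), by group. Points are libraries in the order of their replicate numbers, bars give the mean ± SD of 6 libraries, and the groups overlap in all 8 panels.

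The process lists, counted on their own strand, are given by their genes past an unadjusted p of 0.05, which 6.17% of all genes reached. As the counts look inverted, these values may cover the lesser part of the reads. For the NRF2 list the median sum in Control was 665 CPM, against 10442 CPM at the loci opposite its genes. Of 4 such loci 1 was higher and 0 lower at that p, and of 5 opposite the NADPH oxidase list 1 was higher and 1 lower. Of 8 loci opposite lipid droplet and lipolysis genes 0 were past it. Of 10 beta and FXYD subunits of the Na,K-ATPase 2 were lower, Atp1b3 (-0.82) and Atp1b1 (-0.53). The NADPH oxidase list had 0 of 12, the NRF2 list 0 of 28, lipid droplets and lipolysis 0 of 22, de novo lipogenesis 0 of 17, fatty acid uptake 0 of 16, adipogenic transcription factors 0 of 18, the nuclear respiratory chain 0 of 77, and collagens and matrix 0 of 28. Peroxide and superoxide scavenging had 1 of 24, the peroxiredoxin Prdx4, which ranged from 6.69 to 15.4 CPM in Control and from 0 to 9.78 CPM in NaKtide, with a log2 fold change of -1.10 ± 0.33 (SE) with -1.20 in sham animals and -0.997 after nephrectomy.

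Of 24 cytokines and chemokines 2 were lower, interleukin-1 beta Il1b (-1.43) and Cxcl5 (-1.11), and 1 was higher, Cxcl14 (1.12). Of 28 genes of NF-kB and Toll-like receptor signalling the adaptor Myd88 was higher (0.68), and of 14 adipokines Nampt (-0.74) and Agt (-1.08) were lower. Of 29 cilium assembly genes 3 were lower, Tmem67 (-0.80), Bbs5 (-1.67) and Ift74 (-1.38). The chaperone Hsp90ab1 (0.64) was the 1 heat shock gene of 27, and all 12 NaKtide libraries were above the GFP mean. The cell cycle phosphatase Cdc25a (1.29) was the 1 of 46 cell cycle genes. The median over the 78 cytosolic ribosomal protein genes was 0.32, with 1 higher and 0 lower. The lowest p of further lists belonged to the NRF2 inhibitor Keap1 (-0.43), the lipid droplet protein Plin3 (0.48), the citrate lyase Acly (0.60), the acyl-CoA synthetase Acsl3 (-0.84), the transcription factor Prdm16 (0.52), the kinase Pdpk1 (-0.63), the complex I subunit Ndufa9 (-0.72), the chaperone Calr (0.56) and the proteoglycan Lum (-1.75). For others it was the ribosomal protein Rps14 (0.53), the thymic proteasome subunit Psmb11 (1.91), Ube2c and the p53 target Ei24 (-1.18). No gene in these lists passed the adjusted threshold.

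Adipocyte markers, counted on their own strand, had 0 of 29 genes at an unadjusted p under 0.05. Their median log2 fold change was 1.18 in sham animals and -1.70 after nephrectomy, and the mean of both effects had a median of -0.35. The same opposition of signs held for endothelium (0.72 and -2.40), fibroblast progenitors (0.37 and -1.70) and collagens and matrix (0.71 and -1.60). It was not particular to these lists, as macrophages (0.37 and -0.81), B cells (0.84 and -1.39) and the proteasome (0.11 and -0.38) also had it. Smooth muscle (0.06 and 0.75) and cytosolic ribosomal proteins (0.19 and 0.38) did not. Over all genes the medians were 0 and -0.37. The highest adipocyte sums came from NaKtide replicate 6 in the sham groups and from PNx replicate 6 in the nephrectomised groups, and their part in these medians was not tested.

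**Figure D5:**
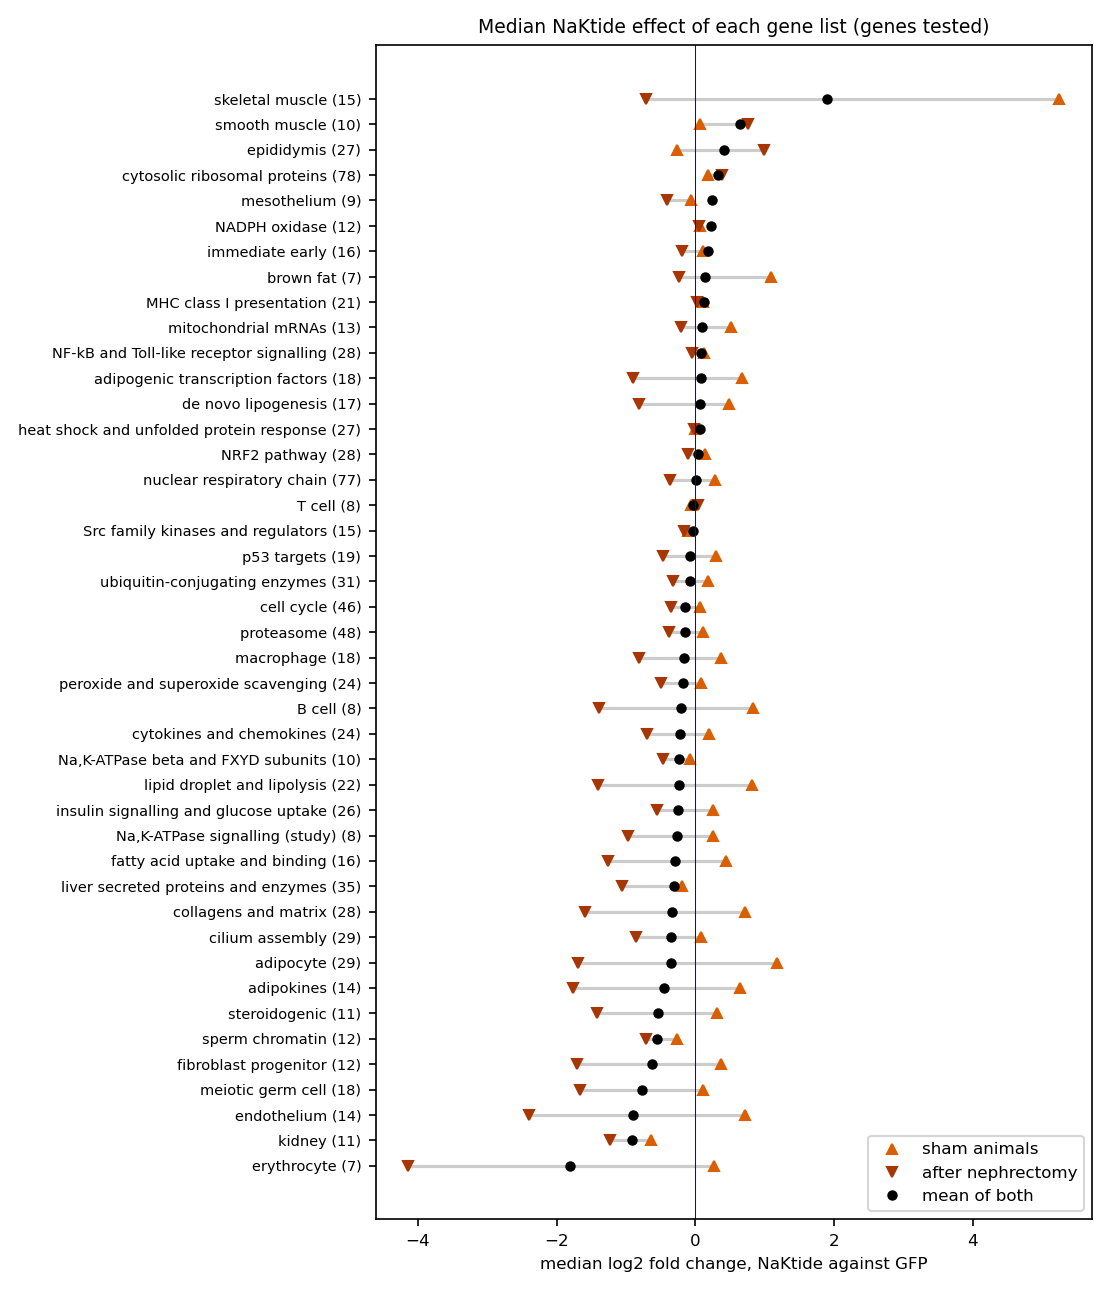
Median log2 fold change of each gene list in sham animals, after nephrectomy and in the mean of both effects (horizontal axis), with the number of genes tested in brackets. Skeletal muscle, whose summed CPM was high only in NaKtide replicate 6, stands at the top with 1.90 and erythrocytes at the bottom with -1.81. Adipocyte, endothelial and matrix lists are among those with opposite signs in both surgeries.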

How the data were processed

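Stranded mRNA libraries came from the adipose tissue of 24 mice, 1 per mouse. Per the labels and the methods of the study, the authors used Trimmomatic 0.38, HISAT2 2.1.0, GenomicAlignments and DESeq2 1.20.0 on GRCm38. They deposited a raw count per gene, FPKM, and counts divided by a size factor per library, which were not used here. All deposited columns matched a sample. For the counting, neither the strand setting nor the annotation release is given in the sources used here. GENCODE M21 supplied symbols, exons and strands for 99.9% of identifiers.

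Raw counts of genes with more than 10 counts over all libraries were tested with edgeR 4.0.16 in R 4.3.3 (trimmed mean of M values, robust quasi-likelihood F-test, 4 group means, Benjamini-Hochberg adjusted p under 0.1). The standard error is the absolute log2 fold change over the square root of F. Alternatives used DESeq2 1.42.0, limma 3.58.1 on voom weights and on the deposited FPKM (log2 after adding 1 or 0.1, which understates the change of low genes), other scalings and filters, a replicate block, and fits without libraries. Tests were checked on simulated counts.

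Text names the signalling genes, Src, Adipoq, called genes, the 8 named genes of lowest p per direction whose mean reached 1 CPM, up to 4 per direction with low p in both surgeries, and the lowest p of each process list. Part of the genes so chosen is not reported here. Opposite-strand loci and the liver list were chosen after their values were seen. Members and lists were chosen with earlier results of these data known. No pair of libraries agreed within sampling noise (lowest chi-square per degree of freedom 1.57, Control replicates 5 and 6).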

Additional observations from a re-analysis of the deposited data

Results flagged for a closer look

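Within groups of 6 libraries, 108 sets of values (27 named genes in 4 groups) were tested for a single library far from the others with Dixon's test on log2(CPM + 1). It picked out 18, where chance picks out about 1 in 20 groups. NaKtide replicate 6 was the high one for Prkca (3.88 CPM), Adipoq (166 CPM), Sh3bgr (78.9 CPM), Acta1 (323 CPM) and Tpm2 (420 CPM). PNx replicate 6 was high for Sash1 (32.5 CPM) and low for Creb1 (4.15 CPM) and Slc22a4 (1.51 CPM). PNx+NaKtide replicate 5 was high for Mir3074-1 (40.8 CPM), Nrsn1 (0.832 CPM) and Pikfyve (0.832 CPM), and had 0 CPM of Cdkn1a and of B430119L08Rik, the latter the lowest value of the called gene. The remaining single libraries were low, PNx+NaKtide replicate 1 for Creb1 (2.21 CPM), NaKtide replicate 5 for Chuk (0 CPM), NaKtide replicate 3 for mt-Nd3 (8.38 CPM), PNx replicate 1 for Zfp213 (0.986 CPM) and Control replicate 2 for Slc10a5 (0.50 CPM). No named gene had an NaKtide effect that differed between surgeries past adjustment, the smallest adjusted p of the interaction in edgeR being 0.469.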

How the results depend on the processing

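B430119L08Rik was lower with NaKtide in all 13 other settings and all 24 fits without 1 library (log2 fold change -4.63 to -3.23), and was called in 10 of the 13 and 19 of the 24. It was not called without PNx replicate 1, NaKtide replicates 1 or 4, or PNx+NaKtide replicates 1 or 4. The number of called genes was 46 in DESeq2 (22 higher, 24 lower), 4620 with limma voom and sample weights (3778 higher, 842 lower), 2 without a filter, 6 on log2(FPKM + 1), 1 (Gm21798, not B430119L08Rik) on log2(FPKM + 0.1), 7 without PNx replicates 1, 2 and 3, 41 without those, PNx replicate 6 and NaKtide replicate 6, and 0 without PNx replicate 6 and NaKtide replicate 6 (2473 genes at an unadjusted p under 0.05). Leaving out single libraries called 0 to 2 genes, put 1276 to 2867 at an unadjusted p under 0.05 (the most without PNx replicate 6) and moved the median log2 fold change to between -0.21 and -0.06. Genes at an unadjusted p under 0.05 numbered 2473 with DESeq2 size factors, 895 with filterByExpr and 7282 with voom. The median of all genes became 0.065 with voom, 0 without PNx replicates 1, 2 and 3 and 0.10 without all 5 libraries. Without these 5, 8 of 26116 genes had arms that did not overlap. The depth difference stayed between -650309 and -505368 counts. The replicate numbers were not treated as pairs in the main fit. Of 36 same-numbered pairs 19 had a correlation over 0.1 (-0.615 to 0.756), and 11 of 24 libraries correlated best with their own number. These values give no ground to ignore the numbers, and whether they mark pairs was not tested. Under the replicate block 0 genes were called, and 1741 had an unadjusted p under 0.05. Reversed signs without PNx replicates 1, 2 and 3 were those of Nos3 (0.92), Cdkn1a (0.10), Src (-0.033) and Acsl3 (0.47). Without all 5 libraries they were Nos3 (1.73), Chuk (0.26), Tlr4 (0.05), Cdkn1a (0.38), Src (-0.22), Adipoq (0.54), Atp1b3 (0.26), Acsl3 (0.59), Ndufa9 (0.56) and Ei24 (0.34). Tlr4 also reversed with voom (0.70), the replicate block (0.10), log2(FPKM + 1) (0.0075), log2(FPKM + 0.1) (0.060) and without PNx replicate 6 and NaKtide replicate 6 (0.47), and over single libraries left out it ran from -0.20 to 0.46. Lum reversed with voom (0.45), and A930016O22Rik without PNx replicate 6 and NaKtide replicate 6 (-0.000299). The far ends of the ranges without libraries were -0.58 (Nos3), -0.82 (Chuk), -0.46 (Cdkn1a), 0.51 (Src), -1.22 (Adipoq), -0.93 (Atp1b3), -1.09 (Acsl3), -0.89 (Ndufa9), -1.47 (Ei24) and 3.99 (A930016O22Rik). Leaving out PNx replicate 6 alone moved Plin3 to 0.74 and Lum to -0.71, and Creb1 ran from -0.51 (without NaKtide replicate 4) to -0.21 (without Control replicate 1). The cause of these changes was not tested. Depth limits genes of few CPM.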

Other observations

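The 4 GFP libraries with low B430119L08Rik (Control replicates 5 and 6, PNx replicates 2 and 3) had the highest values of Ube2c, the gene opposite the troponin gene Tnnc2, within the GFP arm. Ube2c stood at 70.9, 64.2, 230 and 150 CPM in them and between 3.55 and 19 CPM in the other 8 GFP libraries. A930016O22Rik, opposite the muscle creatine kinase gene Ckm (451 shared exon bases), divided the GFP arm in the same way, with 79.6, 83.0, 225 and 146 CPM against 8.30 to 29.1 CPM. In the NaKtide arm, PNx+NaKtide replicates 2, 3 and 4 had 270, 222 and 253 CPM of it and NaKtide replicate 6 had 20229 CPM. These divisions were noticed in the values and were not tested.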
